A study of Homo sapiens with 24 samples.

Results

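The 10 genes described here encode the pre-B-cell receptor and the kinases and adaptor that act directly beneath it: VPREB1, VPREB3 and IGLL1 of the surrogate light chain group, the signaling chains CD79A and CD79B, the adaptor BLNK, and the tyrosine kinases SYK, BTK, BLK and LYN. They were taken by name, as 31 RefSeq transcript accessions among the 64519 of the deposited count table. Of these 31 accessions, 12 had a count above 0 in any library and 4 passed the filter for testing, which asked that at least 2 libraries exceed 1 CPM (a count per library, normalized for sequencing depth): VPREB3 (NM_013378), IGLL1 (NM_020070), CD79A (NM_001783) and BLK (NM_001715). The pre-B-cell receptor is the checkpoint receptor of precursor B cells, in which an immunoglobulin mu heavy chain pairs with a surrogate light chain made of VPREB1 and the IGLL1 product lambda5, before a true light chain exists. VPREB3 is a related protein of the early B lineage that binds the mu chain inside the cell. CD79A and CD79B carry the signal inward, where LYN and BLK, kinases of the SRC family, phosphorylate them and SYK, BLNK and BTK pass the signal on.

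RNA-seq was performed on Nalm6, a cell line established from a B-cell precursor acute lymphoblastic leukemia (B-ALL). The cells carried a lentiviral shRNA against G9a (shG9a), GLP (shGLP) or HP1γ (shHP1g), or a non-specific shRNA (shNS), and were used as puromycin-resistant populations rather than clones. G9a and GLP are histone H3 lysine 9 methyltransferases that also act as coregulators of the glucocorticoid receptor, and HP1γ is a chromatin protein that binds methylated lysine. Each population was treated for 8 h with 100 nM dexamethasone (dex), a synthetic glucocorticoid, or with the same volume of its vehicle ethanol, and the 3 biological replicates of each of the 8 conditions were made on different days. The labels do not say that equal replicate numbers of different conditions share a day. All groups, the shNS controls included, were therefore infected and selected cells, and 1 shRNA per target was named in the labels. Whether the replicates came from separate infections is not given in the sources used here, so p-values measure the spread between these samples. RNA came from whole populations, and fewer cells with a transcript cannot be told apart from less of it per cell.

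Library totals ran from 9289533 to 14387770 counts with a median of 11132064.5. Dex raised TSC22D3 (NM_004089) and FKBP5 (NM_001145777), glucocorticoid-responsive genes, in all 4 shRNA populations (log2 fold changes of 3.22 to 3.89 and of 1.09 to 1.75). EHMT1, the gene of GLP, was lower in shGLP than in shNS in 3 of 3 replicates in each treatment, and CBX3 (NM_016587), the gene of HP1γ, was lower in shHP1g likewise, although neither passed the test in a single treatment (EHMT1 adjusted p = 0.0923 and 0.41, CBX3 adjusted p = 0.277 and 0.142, edgeR). Averaged over both treatments each did (EHMT1 −0.51, adjusted p = 0.0255, and CBX3 −0.55, adjusted p = 0.0231). A second CBX3 accession (NM_007276) was below shNS in 4 of 6 pairs in shHP1g cells and did not pass the test in ethanol (−0.30, adjusted p = 0.644), in dex (−0.15, adjusted p = 0.842) or averaged over both (−0.23, adjusted p = 0.479). EHMT2, the gene of G9a, was not analysed here. Of 9 precursor B-cell markers, which include 3 of the genes described here, CD79A, IGLL1, MME and RAG1 passed the filter and DNTT was listed at 0, and their summed level was 1161 to 2956 CPM against 0 to 0.27 CPM for T-cell, 0 to 0.369 CPM for erythroid and 2.74 to 33.9 CPM for myeloid markers. One library stood apart: replicate 2 of dex-treated shG9a cells had the largest distance from the other replicates of its condition (0.401 log2 units, root mean square). In it CD79A was 1.37 CPM against 7.35 to 16.5 in the other libraries and IGLL1 was 25.3 CPM against 47.3 to 83.0. Differences of VPREB3, CD79A, IGLL1 and pathway genes given with values that turn on shG9a dex cells are therefore given with and without it. Counts of pathway genes called, and genes named only to identify those counts, are given with it only.

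The promoters of VPREB3, IGLL1 and CD79A are shown because these 3 genes carry the differences below. In GRCh37, the build of the count table, VPREB3 lies at chr22:24094930-24096612 and IGLL1 at chr22:23915312-23922489, both on the minus strand, and CD79A at chr19:42381349-42385439 on the plus strand. Each sequence runs from 250 bases before to 50 after the transcription start in the RefSeq annotation of GRCh38.p14, and capitals mark matches to the letters searched. These were an EBF1 core (CCCNNGGG), an E-box of the kind bound by E2A proteins (CAGGTG), the TATA box (TATAAA) and the short motif bound by 1 subunit of the glucocorticoid receptor (AGAACA), read on both strands.
VPREB3, chr22:23754376-23754675, minus strand: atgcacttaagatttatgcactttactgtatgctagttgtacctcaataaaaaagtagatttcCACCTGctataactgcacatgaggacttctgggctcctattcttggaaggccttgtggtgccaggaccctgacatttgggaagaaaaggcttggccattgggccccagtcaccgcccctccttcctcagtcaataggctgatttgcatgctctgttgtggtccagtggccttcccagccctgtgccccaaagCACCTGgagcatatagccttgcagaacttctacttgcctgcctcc
IGLL1, chr22:23580241-23580540, minus strand: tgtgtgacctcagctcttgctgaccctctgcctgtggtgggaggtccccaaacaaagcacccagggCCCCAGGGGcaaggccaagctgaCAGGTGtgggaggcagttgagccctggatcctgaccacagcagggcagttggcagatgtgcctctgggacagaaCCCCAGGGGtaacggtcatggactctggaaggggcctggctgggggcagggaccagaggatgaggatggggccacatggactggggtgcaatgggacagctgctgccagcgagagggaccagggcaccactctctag
CD79A, chr19:41877029-41877328, plus strand: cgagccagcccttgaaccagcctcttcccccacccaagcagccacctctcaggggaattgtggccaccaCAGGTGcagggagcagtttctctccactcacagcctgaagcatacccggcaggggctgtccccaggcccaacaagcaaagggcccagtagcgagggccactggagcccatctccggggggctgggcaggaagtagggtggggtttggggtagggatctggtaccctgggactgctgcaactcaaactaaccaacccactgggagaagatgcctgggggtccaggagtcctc
An E-box was present in all 3 windows (2 in VPREB3, 1 in IGLL1 and 1 in CD79A), as it was in 20.6% of 35116 RefSeq promoters. The EBF1 core was found in IGLL1 alone, where each capitalised stretch CCCCAGGGG holds 2 overlapping matches, and in 19.1% of all promoters. Neither the glucocorticoid receptor motif, present in 14.8% of promoters, nor the TATA box, present in 11.5%, was in these windows.

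VPREB3 had the most counts of the 10 genes in this table (1224 to 4348 per library). It rose in GLP-depleted cells in each treatment, and fell in G9a-depleted cells when both treatments were averaged. In shNS cells, replicates 1, 2 and 3 had 310.2, 269 and 194 normalized CPM with ethanol and 291, 234 and 172 with dex. In shGLP cells, they had 434, 373 and 307 CPM with ethanol and 425, 385 and 297 with dex. The dex-treated shGLP libraries all lay above the dex-treated shNS libraries, while 1 shGLP library overlapped the shNS range in ethanol (307 against a highest value of 310.2). In shG9a cells, VPREB3 was 228, 196 and 123 CPM with ethanol and 205, 218 and 107 with dex. In shHP1g cells, it was 294, 385 and 264 CPM with ethanol and 217, 329.7 and 253 with dex. The ranges of shG9a and of shHP1g overlapped that of shNS in each treatment, and replicate 3 was the lowest of its condition in 7 of 8 conditions, so that a replicate number carried a shift of its own.

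**Figure D1:**
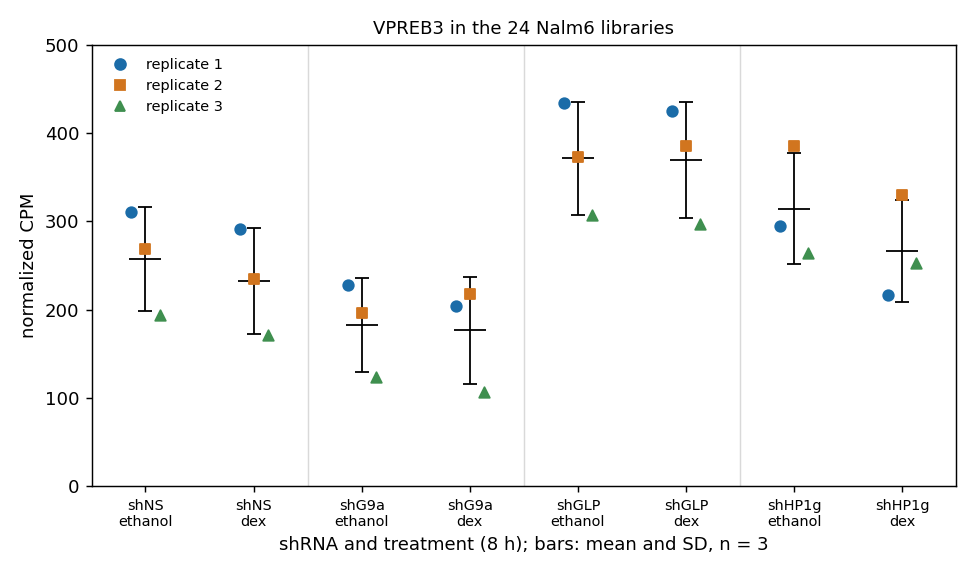
VPREB3 in normalized CPM (y axis) in each of the 24 libraries, by shRNA and treatment (x axis), with 1 symbol per replicate and the mean with its SD (n = 3) as bars. The shGLP libraries lie between 297 and 434 CPM and the shG9a libraries between 107 and 228, and replicate 3 is the lowest of its condition in 7 of 8 conditions.

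Set against the shNS value of equal replicate number, VPREB3 in shGLP cells stood at 138% to 173%, above 100% in 6 of 6 pairs. Values below are log2 fold changes, tested with edgeR (quasi-likelihood F), and a call is an adjusted p of at most 0.05 (Benjamini-Hochberg, over all tested transcripts). GLP depletion raised VPREB3 by 0.54 on the log2 scale in ethanol (SE 0.15, 95% interval 0.23 to 0.85, edgeR adjusted p = 0.0448) and by 0.68 in dex-treated cells (SE 0.15, 0.37 to 0.99, adjusted p = 0.00572), which are 1.45-fold and 1.60-fold. VPREB3 was the 1 member called of 4 tested in each of these comparisons, in which 3.61% and 5.77% of all 10167 tested transcripts were called, and non-overlap in the upward direction, seen for VPREB3 in dex, was seen for 11.9% of transcripts. The ethanol call was lost when any 1 of its 6 libraries was left out (adjusted p 0.0513 to 0.209), and the dex call when shNS dex replicate 2 was left out (adjusted p = 0.0517). Both were lost without replicate 2 (adjusted p = 0.186 and 0.075) or 3 in all conditions (0.397 and 0.113), and DESeq2 did not call the ethanol value (adjusted p = 0.0666). Both were also lost in a fit without the replicate block (adjusted p = 0.548 and 0.227), with fold changes that remained at 0.53 and 0.67. Averaged over both treatments, a contrast added after the data were seen, the increase was 0.61 (SE 0.11, adjusted p = 0.000311, against 10.0% of transcripts called), and this was called without any 1 of its 12 libraries (0.57 to 0.66) but not without the replicate block (adjusted p = 0.0514).

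In shG9a cells VPREB3 stood at 62.3% to 93.1% of the shNS value of equal replicate number, below 100% in 6 of 6 pairs. The difference was −0.51 in ethanol (SE 0.15, adjusted p = 0.0656) and −0.42 in dex (SE 0.15, adjusted p = 0.0927), neither of which passed the test, and no member was called among 4 in these comparisons (3.73% and 8.80% of transcripts were called). At an unadjusted p below 0.05 there were 1 and 3 members, but the share of all transcripts at that limit is not given here. DESeq2 called 0 and 1 members (IGLL1 in dex), and 434 and 960 of all 10167 transcripts. The ethanol difference of VPREB3 was called with no filter (−0.53, adjusted p = 1.28e-07), with the groups compared fitted alone (−0.49, 1.5e-07) and without replicate 1 in all conditions (−0.53, 0.0215). The dex difference was called with no filter (−0.42, adjusted p = 6.36e-05). Both stayed uncalled with DESeq2 and without the replicate block. Without the shG9a dex library that stood apart, the difference in dex was −0.53 (adjusted p = 0.0662). Averaged over both treatments, VPREB3 fell by 0.46 on the log2 scale (SE 0.11, adjusted p = 0.00485, against 13.6% of transcripts called), and this call held without any 1 library (−0.52 to −0.38) and was lost without the replicate block (adjusted p = 0.152) or without replicate 3 in all conditions (adjusted p = 0.114). The shG9a and shGLP comparisons share their shNS libraries.

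The direct contrast of the GLP and G9a depletions, added after the data were seen, does not use shNS. VPREB3 was 2.07-fold higher in shGLP than in shG9a cells with ethanol (log2 1.05, SE 0.15, edgeR adjusted p = 8.29e-05) and 2.14-fold higher with dex (1.10, SE 0.15, adjusted p = 4.34e-05), where 6.23% and 8.62% of transcripts were called. The groups did not overlap in either treatment, which in this direction was so for 12.9% of transcripts in ethanol and 11.2% in dex. Both calls held in each alternative that was run, with values of 0.92 to 1.16 in ethanol and 0.93 to 1.23 in dex when 1 replicate number or 1 library was left out. Against shHP1g, VPREB3 in shGLP cells was higher by 0.24 in ethanol (95% interval −0.07 to 0.55, adjusted p = 0.506) and by 0.44 in dex (0.13 to 0.76, adjusted p = 0.123), neither past the threshold, in contrasts that called 0 of 4 members and 4.20% and 4.02% of transcripts. At an unadjusted p below 0.05 there were 0 and 1 members (share of all transcripts not given here), and DESeq2 called none. Leaving out shHP1g dex replicate 3 brought the latter past it (0.61, adjusted p = 0.0396).

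HP1γ depletion gave no call among the 4 members in ethanol or in dex (2.91% and 4.09% of transcripts called), nor was there one at an unadjusted p below 0.05 or by DESeq2. VPREB3 in shHP1g cells was at 94.9% and 74.6% of shNS in replicate 1 (ethanol and dex), and at 136% to 147% in replicates 2 and 3. The replicate 1 libraries of shHP1g stood farther from their condition than most (0.327 and 0.333 log2 units). Why they did was not tested, and values without them follow. Without replicate 1 in all conditions the difference was 0.49 in ethanol (adjusted p = 0.045) and 0.53 in dex (adjusted p = 0.0166), against 0.30 and 0.24 with all replicates, and without shHP1g dex replicate 1 alone it was 0.47 in dex (adjusted p = 0.0428). Averaged over both treatments it was 0.27 (adjusted p = 0.122, against 10.0% of transcripts called), and 0.34 and 0.39 without replicate 1 of shHP1g in ethanol or in dex (adjusted p = 0.0468 and 0.00454).

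CD79A, the signaling chain that pairs with CD79B, had 19 to 178 counts per library and was lowest in shG9a cells. With ethanol, replicates 1, 2 and 3 had 10.9, 11.8 and 9.95 CPM in shNS, 8.30, 8.26 and 7.36 in shG9a, 13.04, 16.5 and 14.0 in shGLP, and 11.01, 11.8 and 13.6 in shHP1g cells. With dex they had 11.9, 8.34 and 9.14 CPM in shNS, 7.35, 1.37 and 7.52 in shG9a, 14.0, 14.9 and 11.8 in shGLP, and 11.5, 13.3 and 9.80 in shHP1g cells. All shG9a libraries lay below all shNS libraries in each treatment, as 11.6% of transcripts did in ethanol and 10.2% in dex, and all shGLP libraries lay above shNS in ethanol, as 9.52% of transcripts did. None of these differences passed the test within a treatment: shG9a differed by −0.45 in ethanol (SE 0.29, adjusted p = 0.517) and −0.89 in dex (SE 0.30, adjusted p = 0.0708), and shGLP by 0.42 (SE 0.27, adjusted p = 0.584) and 0.48 (SE 0.28, adjusted p = 0.421). Without shG9a dex replicate 2, the dex difference of shG9a was −0.36 (adjusted p = 0.254), while leaving out shG9a dex replicate 1 or 3 instead gave −1.19 and −1.27 (adjusted p = 0.0326 and 0.02). With no filter the dex difference of shG9a was called (−0.91, adjusted p = 2.9e-05). With the groups compared fitted alone, calls were shG9a in ethanol (−0.42, 0.0468) and shGLP in ethanol (0.42, 0.0334) and dex (0.47, 0.0192). All stayed uncalled with DESeq2 and without the replicate block.

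Averaged over both treatments, CD79A fell by 0.67 in shG9a cells (SE 0.21, edgeR adjusted p = 0.0344). Without the library that stood apart it was −0.40 and still called (adjusted p = 0.0153). The call was lost without any 1 of the 3 shNS ethanol libraries, any 1 of the 3 shG9a ethanol libraries, or shNS dex replicate 1 or 3 (adjusted p 0.0521 to 0.0995), and by DESeq2 (adjusted p = 0.0595). It was also lost without the replicate block (adjusted p = 0.0673), in a fit of the groups compared alone (0.0932), and without replicate 1 or 3 in all conditions (0.102 and 0.128). Between shGLP and shG9a cells, CD79A was 2.59-fold higher in shGLP with dex (log2 1.37, SE 0.30, adjusted p = 0.00449) and differed by 0.87 with ethanol (SE 0.28, adjusted p = 0.0726), with no overlap between groups in either treatment (against the same 12.9% and 11.2% of transcripts). Without shG9a dex replicate 2 the dex difference was 0.82 and called (adjusted p = 0.0027), and it was not called in a fit of the groups compared alone (1.48, adjusted p = 0.152). The ethanol difference was called with no filter (0.83, adjusted p = 5.09e-05) and with the groups compared fitted alone (0.85, 0.000139). It was also called without replicate 2 in all conditions (0.79, 0.0165).

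IGLL1, the lambda5 part of the surrogate light chain, had the same order of shRNA means as CD79A within each treatment (shGLP, shHP1g, shNS, shG9a from high to low), with smaller differences. It ranged over 61.5 to 74.4 CPM in shNS, 50.3 to 65.4 in shG9a, 63.0 to 83.0 in shGLP and 57.9 to 74.98 in shHP1g cells with ethanol. With dex it ranged over 59.0 to 62.1 CPM in shNS and 58.2 to 66.6 in shHP1g cells, and was 78.7, 72.2 and 65.0 in shGLP and 59.6, 25.3 and 47.3 in shG9a cells. In dex the 3 shGLP libraries lay above the 3 shNS libraries, as 11.9% of transcripts did, and the shG9a libraries reached into the shNS range from below. Neither difference from shNS passed the test (shGLP 0.24, SE 0.16, adjusted p = 0.51, and shG9a −0.48, SE 0.16, adjusted p = 0.0725), and without shG9a dex replicate 2 the latter was −0.16 (adjusted p = 0.354). Leaving out shG9a dex replicate 1 or 3 instead gave −0.70 and −0.62 (adjusted p = 0.0127 and 0.0356). The shG9a value was also called by DESeq2 (−0.48, adjusted p = 0.0283), with no filter (−0.50, 0.000102) and without replicate 1 in all conditions (−0.73, 0.0346). It stayed uncalled without the replicate block and with the groups compared fitted alone. The shGLP value was called with the groups compared fitted alone (0.24, adjusted p = 0.0119).

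Between shGLP and shG9a cells with dex, IGLL1 was 1.65-fold higher in shGLP (log2 0.72, SE 0.16, adjusted p = 0.00661), 1 of 3 members called in this contrast with VPREB3 and CD79A. Without shG9a dex replicate 2 this was 0.40 and still called (adjusted p = 0.00699), and it was lost without replicate 3 in all conditions (0.86, adjusted p = 0.0776) or with the groups compared fitted alone (0.77, adjusted p = 0.114). Averaged over both treatments, IGLL1 differed from shNS by −0.34 in shG9a cells (SE 0.12, adjusted p = 0.0532), and by −0.18 without shG9a dex replicate 2 (adjusted p = 0.0398). This average was also called by DESeq2 (−0.33, adjusted p = 0.0309), with no filter (−0.35, 4.5e-05) and without replicate 1 in all conditions (−0.46, 0.0444). It was called too without shG9a dex replicate 1 or 3 (0.00897 and 0.0262). It stayed uncalled without the replicate block and with the groups compared fitted alone. Values of IGLL1 are uncertain to the extent that reads of its paralogs were assigned to it. The pseudogene IGLL3P (chr22:25714223-25716047) had 202 to 891 counts per library against 352 to 878 for IGLL1, was also lowest in the shG9a dex library that stood apart (14.5 CPM against 43.6 to 81.3), and shared 12 of its 360 possible 75-base words, the length of the reads, with IGLL1 transcripts. IGLL5 was listed at 0 and shared none, and a noncoding RNA on the opposite strand overlaps IGLL1.

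**Figure D2:**
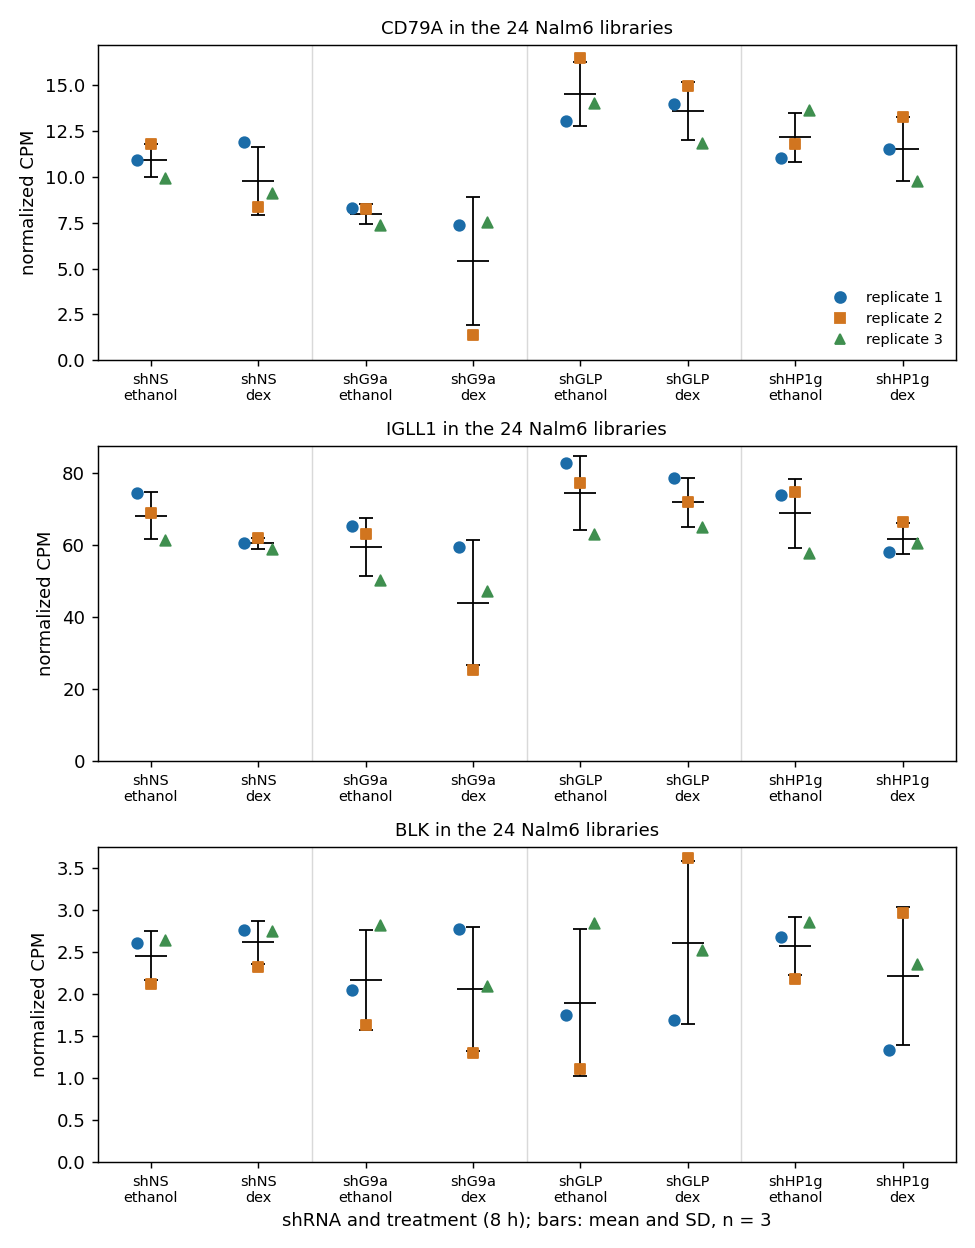
CD79A, IGLL1 and BLK in normalized CPM (y axes from 0) in each library by shRNA and treatment, with 1 symbol per replicate and the mean with its SD (n = 3) as bars. Replicate 2 of dex-treated shG9a cells is the lowest library for CD79A (1.37 CPM) and IGLL1 (25.3 CPM), and BLK overlaps between all conditions at 1.11 to 3.62 CPM.

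BLK, the B-lineage kinase of the SRC family, had 12 to 40 counts per library and no call in any of the comparisons, and its lowest unadjusted p was 0.154. Its mean was 2.45 ± 0.291 CPM in shNS cells with ethanol (SD, n = 3) and between 1.90 and 2.61 in the other conditions. The 95% intervals of its difference from shNS, on the log2 scale, were −0.85 to 0.48 for shG9a, −1.08 to 0.31 for shGLP and −0.60 to 0.72 for shHP1g in ethanol. Differences within these intervals are not excluded by these data.

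Dex itself moved no tested member past the threshold in any of the 4 shRNA populations, where 9.95% (shNS), 6.24% (shG9a), 3.29% (shGLP) and 3.22% (shHP1g) of transcripts were called. With the study's further limit of at least 2-fold in shNS, 1.91% of transcripts and again none of the 4 members were called. At an unadjusted p below 0.05 there were 0, 1, 0 and 0 members (share of all transcripts not given here), and DESeq2 called none. VPREB3 with dex was at 73.7% to 111% of ethanol in the same population and replicate, below 100% in 10 of 12 pairs, with differences of −0.15 (95% interval −0.46 to 0.16) in shNS, −0.06 (−0.37 to 0.26) in shG9a, −0.01 (−0.32 to 0.30) in shGLP and −0.22 (−0.53 to 0.09) in shHP1g. The shG9a value was −0.17 without shG9a dex replicate 2. IGLL1 was below 100% in 10 of 12 pairs as well, with −0.45 in shG9a (SE 0.17, adjusted p = 0.117), which was −0.12 without shG9a dex replicate 2 (adjusted p = 0.607) and −0.67 without shG9a dex replicate 1 (adjusted p = 0.018). Averaged over the 4 populations, a contrast added after the data were seen, dex differed from ethanol by −0.20 for IGLL1 (SE 0.08, adjusted p = 0.0776), −0.11 for VPREB3 (SE 0.08, adjusted p = 0.329), −0.23 for CD79A (SE 0.14, adjusted p = 0.266) and 0.08 for BLK (SE 0.16, adjusted p = 0.797), where 23.8% of transcripts were called. At an unadjusted p below 0.05 there was 1 member (share of all transcripts not given here), and DESeq2 called none. The IGLL1 value passed the threshold without shG9a dex replicate 1, 2 or 3 (−0.26, −0.12 and −0.24, adjusted p = 0.0151, 0.0265 and 0.0381). Without shG9a dex replicate 2 the others were −0.14 for VPREB3, −0.10 for CD79A and 0.13 for BLK, none called.

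The interactions, which test whether the dex response differed between a depleted population and shNS, called no member (0.0885%, 0.118% and 0.0197% of transcripts were called for shG9a, shGLP and shHP1g). At an unadjusted p below 0.05 there were 0 members in each, and DESeq2 called 0. The VPREB3 interactions were 0.09 (SE 0.21) for shG9a, 0.14 (SE 0.21) for shGLP and −0.07 (SE 0.21) for shHP1g. Without shG9a dex replicate 2 the shG9a interaction turned to −0.023 for VPREB3, to 0.094 for CD79A (−0.44 with it) and to 0.042 for IGLL1 (−0.28 with it), none called.

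**Figure D3:**
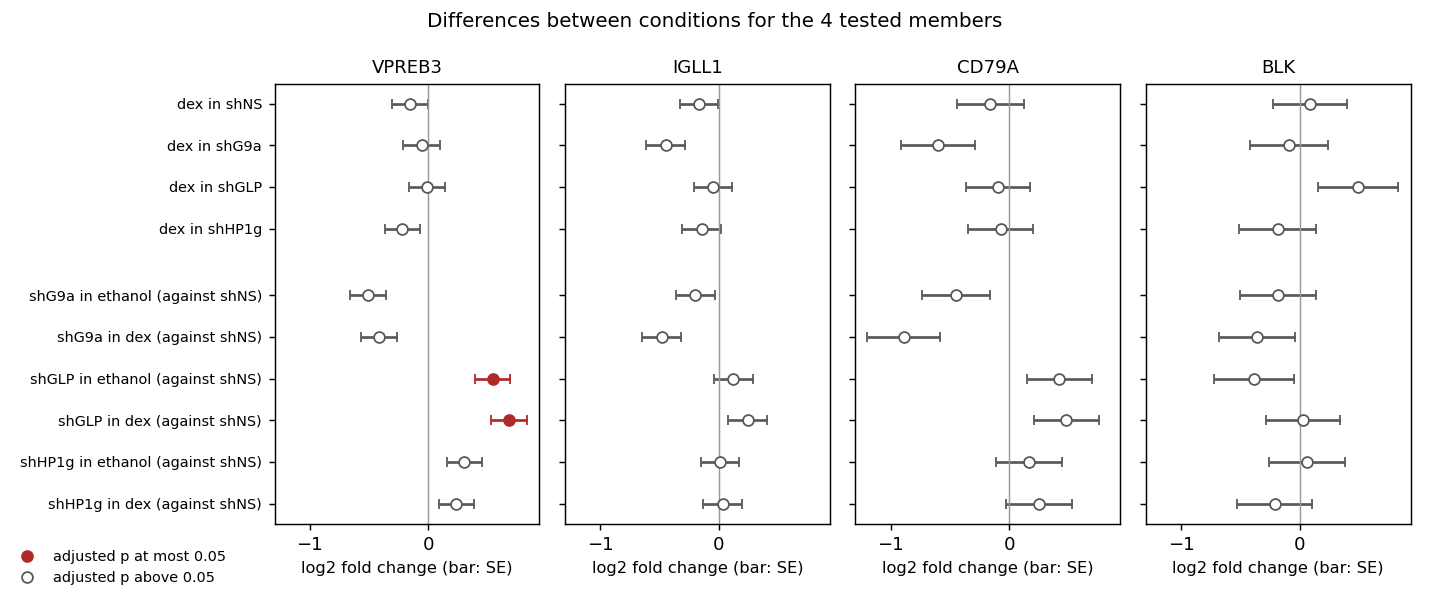
Log2 fold changes (x axes) of the 4 tested members for dex against ethanol in each shRNA population (upper 4 rows) and for each depletion against shNS in ethanol and in dex (lower 6 rows), with SE as bars. Filled points passed an adjusted p of at most 0.05 and are VPREB3 in shGLP cells, at 0.54 in ethanol and 0.68 in dex.

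The other 6 genes could not be tested. VPREB1 (NM_007128), the partner of lambda5, had 0 to 5 counts per library, at most 9 in the sum of a condition (shNS dex, exact Poisson 95% interval 4.12 to 17.1) and at least 3 (shG9a ethanol and both shHP1g conditions, 0.619 to 8.77), with overlapping intervals. SYK, the kinase recruited to phosphorylated CD79 chains, had 1 to 10 counts on NM_001174168 and 0 to 5 on NM_001174167. BTK, a TEC family kinase that acts on phospholipase C, had 1 to 11 counts on NM_001287344, from 8 in the sum of the shGLP ethanol libraries (3.45 to 15.8) to 24 in the shHP1g dex libraries (15.4 to 35.7), and 0 to 4 on NM_001287345. LYN (NM_002350) had 0 to 2 counts per library. BLNK had 2 counts in 1 library on 1 of its 9 accessions, and all 4 accessions of CD79B were listed at 0. These intervals and limits cover counting error only, and 3 counts corresponded to about 0.209 to 0.323 CPM.

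**Figure D4:**
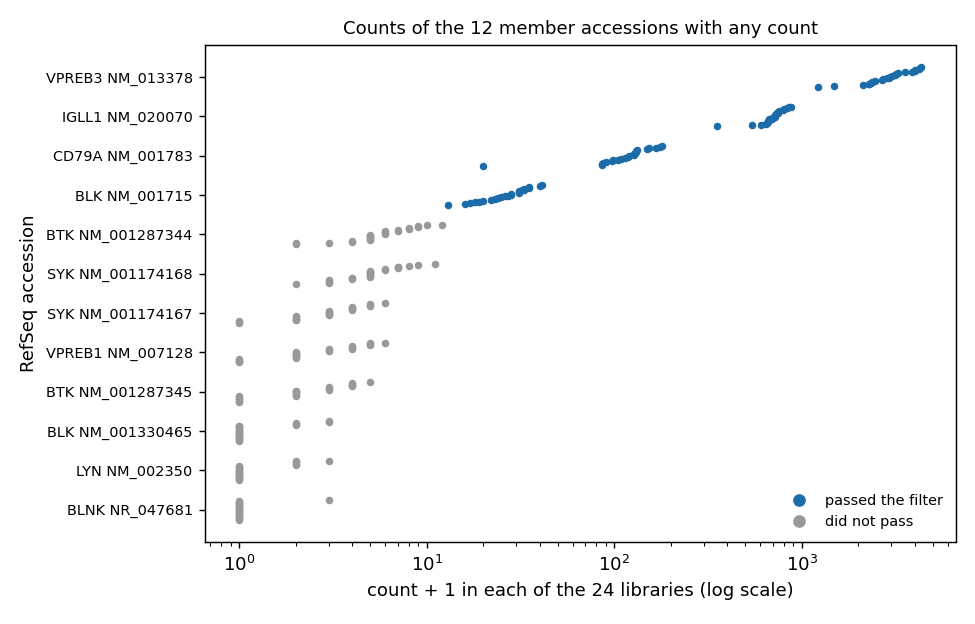
Counts of the 12 accessions of the 10 genes that had any count, as count + 1 on a log scale (x axis), with 1 point per library stacked in order of size within each accession (y axis). The 4 accessions that passed the filter lie at 12 counts or more in all libraries and the other 8 at 11 counts or fewer.

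A low count here does not show that a gene was silent. GAPDH, which every cell uses, was listed at 0 on its main accession (NM_002046) in all 24 libraries and had 24 to 62 counts on another, whereas ACTB had 88109 to 139178. VPREB3 was the only one of the 10 genes with a single accession in the table. Of genes with 1 accession, 39.2% had one that passed the filter, against 31.5% of genes with 2 and 25.1% of genes with 3 or more. Whether the way of counting lowered the genes with several accessions was not tested.

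The wider pathway was described by a list of 54 genes of the mu chain, co-receptors, adaptors, effectors, inhibitors and related kinases, of which 25 genes (28 transcripts) were tested. The genes behind the counts are given for completeness and were in part named after their values were seen. With dex, 2 rose (CD72, VAV3) and 4 fell (FYN, IL7R, PLCG2, LCP2) in shNS, and 1 rose (CD72) and 4 fell (IL7R, PLCG2, LCP2, PIK3R1) in shG9a. In both shGLP and shHP1g, 2 rose (CD72, VAV3) and 1 fell (IL7R). The shares of all transcripts called in these 4 comparisons were the 9.95%, 6.24%, 3.29% and 3.22% given above. CD72, an inhibitory co-receptor, rose in all 4 populations (128 to 232 CPM in shNS, log2 0.87, SE 0.11, edgeR adjusted p = 7.77e-06), and IL7R, the interleukin-7 receptor chain, fell in all 4 (33.3 to 15.8 CPM in shNS, −1.08, SE 0.12, adjusted p = 7.62e-07). Without shG9a dex replicate 2 the dex values in shG9a were 0.64 for CD72 and −0.82 for IL7R, both called. The CD72 call in shGLP (0.50, adjusted p = 0.0119) was lost without shGLP etoh replicate 1 or shGLP dex replicate 3 (adjusted p = 0.102 and 0.0995). It was also lost without the replicate block (0.406) and without replicate 3 in all conditions (0.345). The CD72 call in shHP1g was lost without the replicate block (0.0883). Without replicate 3 in all conditions the IL7R calls in shGLP and shHP1g were lost (−0.53 and −0.63, adjusted p = 0.241 and 0.116). The median log2 fold change of the 28 transcripts with dex in shNS was −0.04, against −0.03 for all transcripts tested.

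Depletion in dex-treated cells called 4 of the list higher and 3 lower in shG9a, 6 higher and 0 lower in shGLP, and 3 higher and 1 lower in shHP1g, with medians of 0.01, 0.20 and 0.13 against 0.00, 0.03 and 0.03 for all transcripts, where 8.80%, 5.77% and 4.09% of transcripts were called. In ethanol 3 were higher (YES1, VAV3, PIK3R1) and 1 lower (CD72) in shG9a, 1 higher in shGLP (PIK3AP1) and 1 higher in shHP1g (PIK3R1), where 3.73%, 3.61% and 2.91% of transcripts were called. CD81, a membrane protein of the tetraspanin family, was higher in dex-treated cells of all 3 depletions: it had 25.9 CPM in shNS, 45.6 in shG9a (log2 0.83, adjusted p = 0.00467, and 1.03 without shG9a dex replicate 2), 60.9 in shGLP (1.24, adjusted p = 5.71e-05) and 46.3 in shHP1g cells (0.84, adjusted p = 0.0066, and 0.0595 without shNS dex replicate 1). The CD81 call in shG9a was lost without replicate 3 in all conditions (adjusted p = 0.104) or with the groups compared fitted alone (0.105), and that in shHP1g without replicate 3 (0.176). Comparisons with shNS in a treatment share its shNS libraries, which for CD81 in dex ran from 20.2 to 32.7 CPM. In ethanol, with shNS at 37.8 CPM, CD81 was not called in shG9a (0.002, adjusted p = 0.999), shGLP (0.46, 0.203) or shHP1g (0.33, 0.415). CD72 was lower in shG9a cells in both treatments (−0.63 in ethanol, adjusted p = 0.00206, and −0.70 in dex, adjusted p = 0.000252, or −0.86 without shG9a dex replicate 2) and in shHP1g cells with dex (−0.53, adjusted p = 0.0055, and 0.0614 without shHP1g dex replicate 2). The 2 CD72 calls in shG9a were lost without the replicate block (adjusted p = 0.205 and 0.0635) and without replicate 3 in all conditions (0.24 and 0.0735), as was the call in shHP1g (0.3 and 0.273). Among dex-treated cells, ZAP70, the relative of SYK known from T cells, was higher than in shNS in shGLP (0.67, adjusted p = 0.00277) and shG9a cells (0.49, adjusted p = 0.025). The shGLP call was lost without replicate 3 in all conditions (0.68, adjusted p = 0.129). The shG9a value was not called without shG9a dex replicate 2 (0.44, adjusted p = 0.1) or shNS dex replicate 2 or 3 (adjusted p = 0.156 and 0.0957). Nor was it called without the replicate block (0.0871), with the groups compared fitted alone (0.117), or without replicate 2 or 3 in all conditions (0.199 and 0.204). The remaining genes named by the same rule were at the margin of detection: PRKCB rose in dex-treated shG9a cells at 1.47 against 0.412 CPM (log2 1.85, adjusted p = 0.00485, and 1.96 without shG9a dex replicate 2), not called without replicate 2 or 3 in all conditions (adjusted p = 0.0584 and 0.133) or with the groups compared fitted alone (0.111). SH3BP2 fell there at 1.41 against 3.16 CPM (−1.16, adjusted p = 0.0364), not called without shG9a dex replicate 2 (adjusted p = 0.157) or 3 (0.111) or without shNS dex replicate 1, 2 or 3 (0.0964, 0.079 and 0.128).

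Of 11 transcription factors that regulate the pre-B-cell receptor genes, 4 were tested. IRF8 rose in shGLP cells in ethanol (1.27, SE 0.16, edgeR adjusted p = 1.77e-05) and in dex (1.20, SE 0.16, adjusted p = 3.04e-05), and IRF4 (NR_046000) rose with dex in shNS (1.86, SE 0.53, adjusted p = 0.022). IRF4 was not called with dex in shG9a (0.50, adjusted p = 0.661), shGLP (0.71, 0.554) or shHP1g (0.05, 0.988), nor were its interactions. IRF8 and IRF4 were named after their values were seen. Among 4666 transcripts with a mean of at least 10 CPM, the condition means most like those of VPREB3 over the 8 conditions were those of APCDD1, MAP2K2 and LGALS3BP (Pearson r of 0.988, 0.983 and 0.982). IGLL1 was most like CD79A (r = 0.977), ahead of SND1 and DR1, and CD79A was most like SND1 (r = 0.986), KMT2D and DR1. These are descriptions over 8 points that share libraries and the shG9a dex library that stood apart.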

How the data were processed

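RNA was extracted from 24 cultures of Nalm6 cells (8 conditions, 3 replicates) and sequenced as paired ends. Per the labels and the study's methods, the authors trimmed the reads, aligned them to hg19 with HISAT2 and deposited raw whole-number counts per RefSeq transcript accession, and their file name calls the values CPM although they are counts. The versions of these tools, the counting mode and the use of strand are not given in the sources used here. A second deposited table holds the authors' log2 fold changes and adjusted p-values for 4 comparisons, from which nothing but the pairs of accession and gene symbol was taken (9872 accessions, with 53869 more named from RefSeq and 778 unnamed).

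Counts were fitted with edgeR 4.0.16 (R 4.3.3) by the quasi-likelihood test, with upper quartile factors, a filter that kept accessions above 1 CPM in 2 or more libraries (10167 of 64519 accessions), the 8 conditions, and the replicate number as a block, since per the labels the replicates of a condition were made on different days. The labels do not say that equal numbers share a day. Deviations of same-numbered libraries from their condition means correlated at 0.0141 to 0.514, over 0.1 in 55 of 84 pairs, so that the pairing is not established and calls lost without the block are given as such. P-values were adjusted by Benjamini and Hochberg over all tested transcripts. The script was tested on simulated data. CPM in the text are scaled by the same factors. Library totals of 9289533 to 14387770 limit precision for transcripts of few counts.

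The members and lists were chosen with earlier results of these data known. The text names all 10 genes, and of the wider pathway it gives values for at most 6 genes called with at least 1.5-fold, largest first. Other pathway genes and the regulators are named to identify a count and were named after their values were seen. In all, 8 contrasts (between depletions, or averaged over treatments or shRNAs) were added after the data were seen. Alternatives were TMM factors, no filter, a mean of at least 5 CPM, no replicate block, DESeq2 1.42.0, a fit of the groups compared alone, sums per gene, and leaving out each library or replicate number. Motifs were searched on both strands of RefSeq promoters.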

Additional observations from a re-analysis of the deposited data

How the results depend on the processing

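Of 1813 alternative values of the named genes, 1599 kept their direction and side of the threshold, 71 lost a call and 50 gained one. The other 93, in 31 comparisons of the 4 tested members, changed sign, none with a call in either fit, from values of up to 0.49 in size. The causes were not tested. TMM factors, a mean of at least 5 CPM and sums per gene moved no count of members called by more than 1.5 times. Without the replicate block, the fit that ignores replicate numbers, 0 members were called in shGLP in ethanol, shGLP in dex, shG9a over both treatments and shGLP over both treatments. In the same order, that fit called 171, 269, 690 and 565 of all 10167 transcripts. With DESeq2 the counts were 0 in shGLP in ethanol and 1 in shG9a in dex, where 399 and 960 of all 10167 transcripts were called. With no filter they were 2 for dex in shG9a, 1 for shG9a in ethanol, 3 for shG9a in dex, 2 for shGLP against shG9a in ethanol, 1 for shGLP against shHP1g in ethanol and 1 in dex, 2 for shGLP and 1 for shHP1g over both treatments, and 3 for dex over all shRNAs. In the same order, the fit with no filter called 736, 318, 834, 511, 431, 416, 922, 1141 and 2277 of 24375 transcripts. With the groups compared fitted alone they were 1 for dex in shNS, 1 for dex in shHP1g, 2 for shG9a in ethanol, 2 for shGLP in ethanol, 3 for shGLP in dex, 3 for shGLP against shG9a in ethanol and 1 in dex, and 1 for shG9a and 3 for shGLP over both treatments. In the same order, these fits called 2186, 1075, 885, 803, 1176, 1590, 237, 1360 and 1980 transcripts of all those tested. The main fit called 1012, 327, 379, 367, 587, 633, 876, 1383 and 1019.

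When 1 library or replicate number was left out, counts ranged from 0 to 1 for dex in shG9a, dex over all shRNAs, shG9a in ethanol, shGLP in ethanol, shGLP in dex, shHP1g in ethanol, shHP1g in dex, shHP1g over both treatments and shGLP against shHP1g in dex. They ranged from 0 to 2 for shG9a in dex, 0 to 3 for shG9a over both treatments, 1 to 2 for shGLP against shG9a in ethanol and 2 to 3 in dex. The share of all transcripts called in these fits is not given here. Depth limits BLK and the 6 untested genes most, whose counts per library were 40 or fewer.

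The values that changed sign follow, as log2 fold changes. With TMM factors the values were 0.0067 for VPREB3 (dex in shGLP), −0.00028 for BLK (shGLP in dex). With no filter on low counts the values were −0.026 for BLK (shHP1g in ethanol), −0.076 for IGLL1 (shHP1g in ethanol), −0.024 for BLK (shGLP in dex), −0.050 for IGLL1 (shHP1g in dex), −0.063 for IGLL1 (shHP1g, both treatments). With a mean of at least 5 CPM the values were 0.026 for VPREB3 (dex in shGLP). With DESeq2 the values were −0.0066 for BLK (shGLP in dex), −0.0043 for IGLL1 (interaction of dex and shHP1g). With the groups compared fitted alone the values were −0.0028 for BLK (shGLP in dex). With 1 library or replicate number left out, VPREB3 ranged over −0.17 to 0.096 (dex in shG9a), −0.096 to 0.038 (dex in shGLP), −0.23 to 0.15 (interaction of dex and shHP1g), −0.032 to 0.25 (interaction of dex and shG9a), −0.39 to 0.0025 (dex in shHP1g). With 1 library or replicate number left out, CD79A ranged over −0.30 to 0.0046 (dex in shNS), −0.073 to 0.21 (interaction of dex and shGLP), −0.23 to 0.31 (interaction of dex and shHP1g), −0.24 to 0.13 (dex in shHP1g), −0.82 to 0.094 (interaction of dex and shG9a). For CD79A the further ranges were −0.22 to 0.045 (dex in shGLP). With 1 library or replicate number left out, IGLL1 ranged over −0.075 to 0.084 (shHP1g in ethanol), −0.043 to 0.15 (shHP1g in dex), −0.54 to 0.074 (interaction of dex and shG9a), −0.021 to 0.083 (shHP1g, both treatments), −0.056 to 0.14 (interaction of dex and shHP1g). With 1 library or replicate number left out, BLK ranged over −0.60 to 0.11 (dex in shHP1g), −0.61 to 0.10 (shHP1g in dex), −0.68 to 0.0028 (interaction of dex and shHP1g), −0.40 to 0.0088 (shGLP, both treatments), −0.27 to 0.099 (shHP1g, both treatments). For BLK the further ranges were −0.44 to 0.15 (dex in shG9a), −0.11 to 0.94 (dex in shGLP), −0.41 to 0.30 (shGLP in dex), −0.19 to 0.83 (interaction of dex and shGLP), −0.22 to 0.88 (shGLP against shG9a in dex). The last BLK ranges were −0.16 to 0.25 (dex, all shRNAs), −0.52 to 0.069 (interaction of dex and shG9a), −0.0046 to 0.16 (shHP1g in ethanol), −0.22 to 0.64 (shGLP against shHP1g in dex), −0.55 to 0.056 (shGLP against shG9a in ethanol).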
